A study of Homo sapiens with 8 samples.

Results

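In HepG2 cells that overexpress DNMT3A, 84 weakly expressed protein-coding genes stood lower than in cells with the control virus. They were chosen by their measured values. A gene had to be annotated as protein coding, to have a mean of at least 0.1 and under 1 FPKM over the 8 libraries, to have its highest DNMT3A library below its lowest control library, and to have a DNMT3A mean at most 0.5 times the control mean. FPKM is the number of sequenced fragments scaled by gene length and by the library total. The 84 genes were 3.81% of the 2202 protein-coding genes in that range of levels, in a table with 19951 protein-coding genes and 58735 genes of every kind. Because the same comparison picked the genes, their lower level is a description, and no test of it is given.

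HepG2 is an established line of human hepatocellular carcinoma cells. The DNMT3A cells carried a lentivirus that overexpresses DNMT3A (libraries DNMT3A 1 to 4), and the others carried a control lentivirus (libraries control 1 to 4). The library names of both groups contain EGFP, the genotype labels read DNMT3A overexpression and WT, and the labels do not say whether a group was 1 infected pool, 1 clone or several cultures, so the spread between libraries may be technical. RNA was selected with poly-T beads and sequenced, and the deposited values corresponded to 15911019 to 17677093 reads per library. In bulk RNA, fewer cells that express a gene and less RNA per cell cannot be told apart.

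DNMT3A is a de novo methyltransferase, an enzyme that adds methyl groups to cytosines of CpG dinucleotides that carried none before. Methylation of CpG-rich promoters is known to go with silent genes, and germline genes of the MAGE family are a textbook case, since they are methylated in most adult tissues and lose that mark in many tumours. Methylation was not measured in these libraries. DNMT3A itself (chr2:25227855-25342590 of hg38, minus strand) had 9.75, 10.2, 8.51 and 7.26 FPKM in DNMT3A libraries 1 to 4, against 3.62, 3.89, 3.45 and 3.64 FPKM in control libraries 1 to 4. The 2 groups did not overlap. On the log2(FPKM + 0.1) scale DNMT3A was higher by 1.26 (95% interval 1.02 to 1.5, limma adjusted p = 0.000295, higher in 4 of 4 libraries). A two-sided exact permutation test gave p = 0.0286, the smallest that 70 assignments allow. Reads of the virus-borne and the endogenous gene were not told apart.

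Summed over the 84 genes, the DNMT3A libraries held 13.1 to 16.2 FPKM, against 41.6 to 44.1 FPKM in the control libraries. In reads these sums were 850 to 1042 in DNMT3A libraries and 2828 to 3060 in control libraries. The median gene stood at 0.346 to 0.411 times its control mean in the 4 DNMT3A libraries. The highest of the 4 DNMT3A libraries was DNMT3A 1 for 22 genes, DNMT3A 2 for 26, DNMT3A 3 for 19 and DNMT3A 4 for 14, and 3 genes had no read in any of them. The ratio of the DNMT3A mean to the control mean had a median of 0.386 over the 84 genes and of 1.03 over all 2202 genes of the same range. It was 0 for 3 genes, above 0 and at most 0.1 for 3, above 0.1 and at most 0.25 for 15, above 0.25 and at most 0.4 for 25, and above 0.4 for 38.

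The opposite rule, with every control library below every DNMT3A library and at least a doubling of the mean, picked 89 of the 2202 genes (4.04%). Lower genes were therefore about as frequent as higher ones in this range of levels. Without the limit on the ratio, 187 genes (8.49%) had every DNMT3A library below every control library. No read was found in any DNMT3A library for 3 of the 2202 genes and in any control library for 2. Over all 19322 genes with a mean of at least 0.1 FPKM, limma called 1059 lower (5.48%) and 1070 higher (5.54%) in DNMT3A libraries at an adjusted p under 0.05. Leaving out 1 library lowered the count of lower genes to 571 without control 3, 613 without control 2, 635 without DNMT3A 3 and 667 without control 1, and that of higher genes to 614 without DNMT3A 3, 639 without control 3, 690 without control 2 and 701 without DNMT3A 1. Of the 12240 protein-coding genes tested, 7.57% were called lower and 7.25% higher. The list counts below are to be read beside these shares and, for members, beside 3.81% of all low genes.

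**Figure D1:**
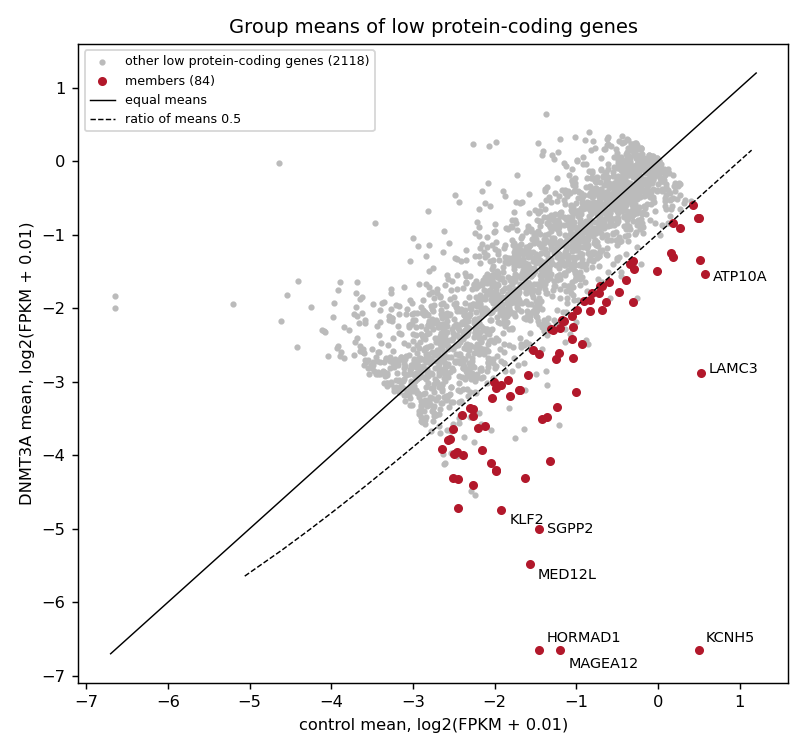
Mean FPKM of the 2202 low protein-coding genes in DNMT3A libraries (vertical axis) and control libraries (horizontal axis), both as log2(FPKM + 0.01), n = 4 libraries per group. The 84 genes of the rule (red) lie on or under the line of a ratio of 0.5, and KCNH5, HORMAD1 and MAGEA12 lie at the bottom because no read was found in any DNMT3A library.

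**Figure D2:**
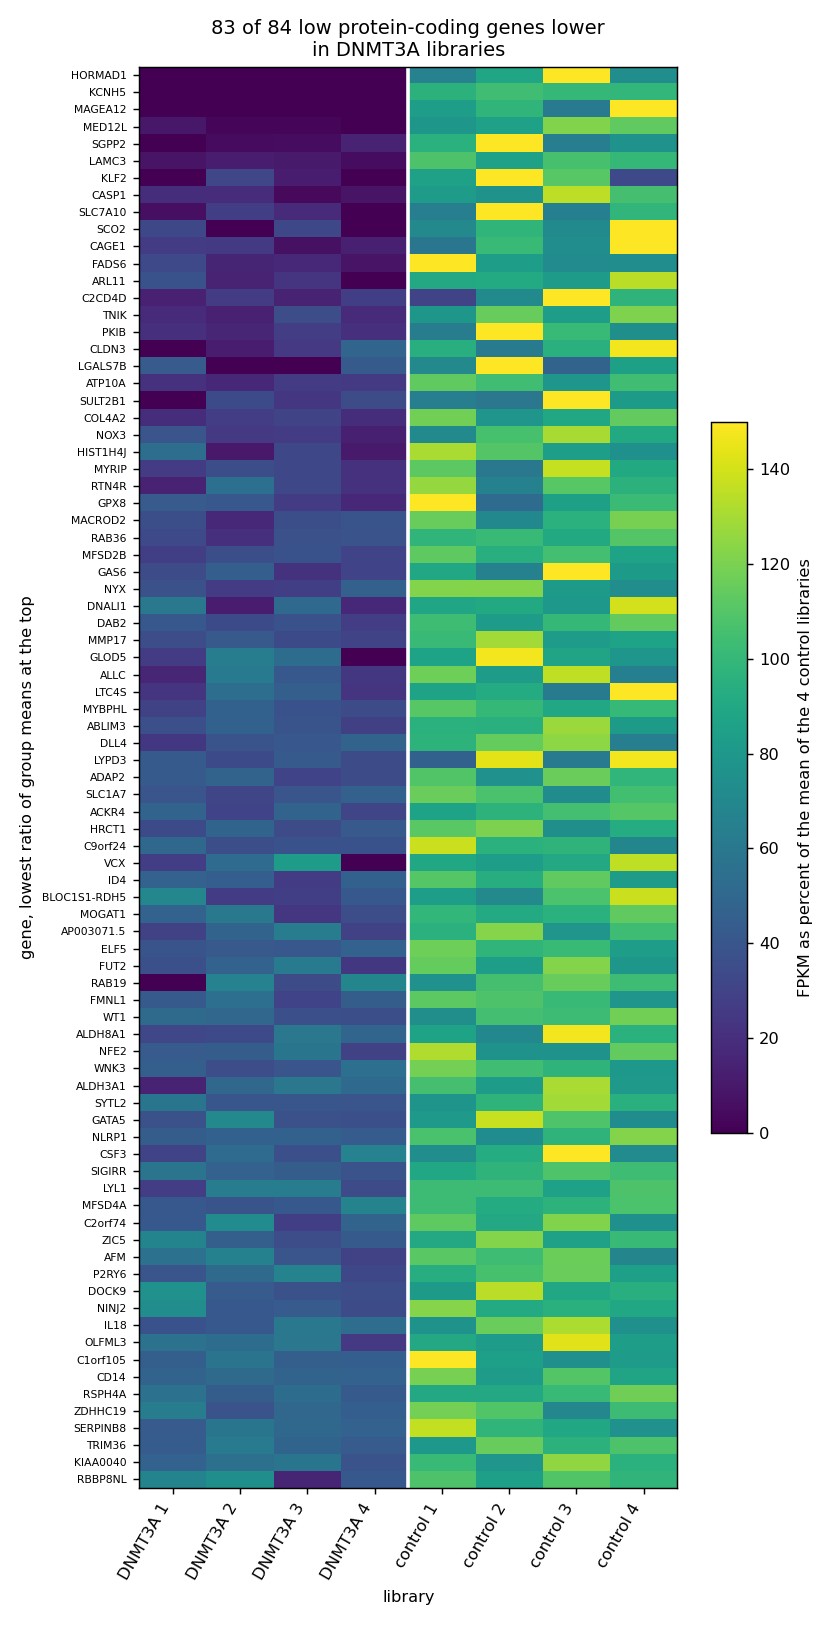
FPKM of 83 of the 84 genes (rows) in each library (columns) as a percent of the gene's mean in the 4 control libraries, with the colour scale ending at 150. The 4 DNMT3A columns are darker than the 4 control columns in every row, as the rule requires, and the rows near the top are at or close to 0 in DNMT3A libraries.

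These are low counts, and the depth sets how firmly each gene can be described. Summed over the 4 libraries of a group, the 84 genes had a median of 33.5 reads in DNMT3A cells and 89 reads in control cells. At least 200 control reads were found for 16 genes, at least 50 and under 200 for 48 and under 50 for 20. The exact 95% interval of the ratio of reads, which covers counting error only, was 0.192 to 0.263 for ATP10A and 0.0284 to 0.309 for KLF2, which shows how much the precision differs between members. RAB19, a small GTPase with 5 reads in DNMT3A and 11 in control libraries, and VCX, with 6 and 14, have the fewest reads behind a ratio above 0.4.

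The widest gap in well-counted data was that of KCNH5, a voltage-gated potassium channel of the ether-à-go-go family (ENSG00000140015, chr14:62699454-63102037 of hg38, minus strand). It had 0 FPKM in all 4 DNMT3A libraries, against 1.35, 1.46, 1.40 and 1.39 FPKM in control libraries 1 to 4. In reads this was 0 in the DNMT3A libraries together and 265, 309, 273 and 302 in control libraries 1 to 4. Counted against a set floor of 3 reads over the DNMT3A group, control cells had 409-fold more. The exact 95% interval of the ratio of reads reached from 0 to 0.00301. PPP2R5E, a phosphatase subunit 269 kb away and the nearest gene there with a mean of at least 0.1 FPKM, had 7.74 ± 0.706 FPKM in DNMT3A and 7.84 ± 0.289 FPKM in control libraries (SD, n = 4 each), with a log2 difference of -0.02 (limma adjusted p = 0.886).

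A pair of germline genes were the other members with no read in DNMT3A cells. MAGEA12, a MAGE family cancer-testis antigen (chrX:152733779-152737669, plus strand), had 0 FPKM in the 4 DNMT3A libraries, against 0.355, 0.419, 0.260 and 0.672 FPKM in control libraries 1 to 4. HORMAD1, a protein of the meiotic chromosome axis (chr1:150698060-150720888, minus strand), had 0 FPKM in the 4 DNMT3A libraries, against 0.235, 0.314, 0.604 and 0.260 FPKM in control libraries 1 to 4. Each had 56 reads in the controls together, which is 19.9-fold more against the same floor. The exact 95% interval of the ratio of reads reached from 0 to 0.0638 for each. MAGE genes are close copies of each other, and the authors' counting could have moved reads between them.

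CSAG1, another cancer-testis gene, starts 0.044 kb from the start of MAGEA12 on the opposite strand. It missed the rule only by its mean of 0.0990 FPKM, with 0 FPKM in all DNMT3A libraries, against 0.287, 0.0532, 0.347 and 0.104 FPKM in control libraries 1 to 4, and 14 reads in the controls. CAGE1, a further cancer-testis gene, was a member at 0.0652, 0.0622, 0.0164 and 0.0324 FPKM in DNMT3A libraries 1 to 4, against 0.143, 0.248, 0.180 and 0.404 FPKM in control libraries 1 to 4. It overlaps a processed pseudogene, AL139095.2, and their reads cannot be told apart. AL139095.2 was lower too (5.51 ± 1.74 FPKM in DNMT3A and 13.5 ± 2.58 FPKM in control libraries, log2 -1.31, limma adjusted p = 0.00902). CAGE1 also overlaps SSR1 on the same strand, at 38.8 FPKM in DNMT3A and 38.7 FPKM in control libraries. RIOK1 overlaps it on the opposite strand at a mean of 16.1 FPKM. CAGE1 itself averaged 0.144 FPKM, so its reads are uncertain. Among 11 low genes of a list of cancer-testis and germline genes, 2 were members, MAGEA12 and HORMAD1. Germline genes did not all go one way. PRAME, a cancer-testis antigen of the same list, had 1.16 ± 0.161 FPKM in DNMT3A and 0.198 ± 0.106 FPKM in control libraries, and rose by 2.15 on the log2 scale (limma adjusted p = 0.00224). Of the 9 other tested genes of the list, 1 rose and none fell by limma, while 2 were lower at an unadjusted p under 0.05 and 2 were called lower with voom. A second list, of PRAME, MAGE, GAGE and other cancer-testis families matched by symbol pattern, held 1 member (MAGEA12) among 16 low genes, of which 3 met the opposite rule. Of its 35 other tested genes 2 fell and 5 rose.

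A further 3 genes had a few reads left in DNMT3A cells. LAMC3, a gamma chain of laminin, a basement membrane protein (chr9:131009082-131094473, plus strand), had 0.113, 0.165, 0.152 and 0.0749 FPKM in DNMT3A libraries 1 to 4, against 1.54, 1.22, 1.51 and 1.42 FPKM in control libraries 1 to 4. Its highest DNMT3A library stood 7.40-fold under its lowest control library. MED12L, a paralogue of the Mediator subunit MED12 (chr3:151085697-151437072, plus strand), had 0.0318, 0.00866, 0.00912 and 0 FPKM in DNMT3A libraries 1 to 4, against 0.259, 0.281, 0.395 and 0.369 FPKM in control libraries 1 to 4. SGPP2, a sphingosine-1-phosphate phosphatase (chr2:222424517-222560948, plus strand), had 0, 0.0164, 0.0172 and 0.0511 FPKM in DNMT3A libraries 1 to 4, against 0.339, 0.575, 0.227 and 0.272 FPKM in control libraries 1 to 4. No DNMT3A library had more than 3 reads of SGPP2 or 7 reads of MED12L, while LAMC3 had 10 to 23, and the group means gave ratios of 0.0886 for LAMC3, 0.0380 for MED12L and 0.0600 for SGPP2.

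**Figure D3:**
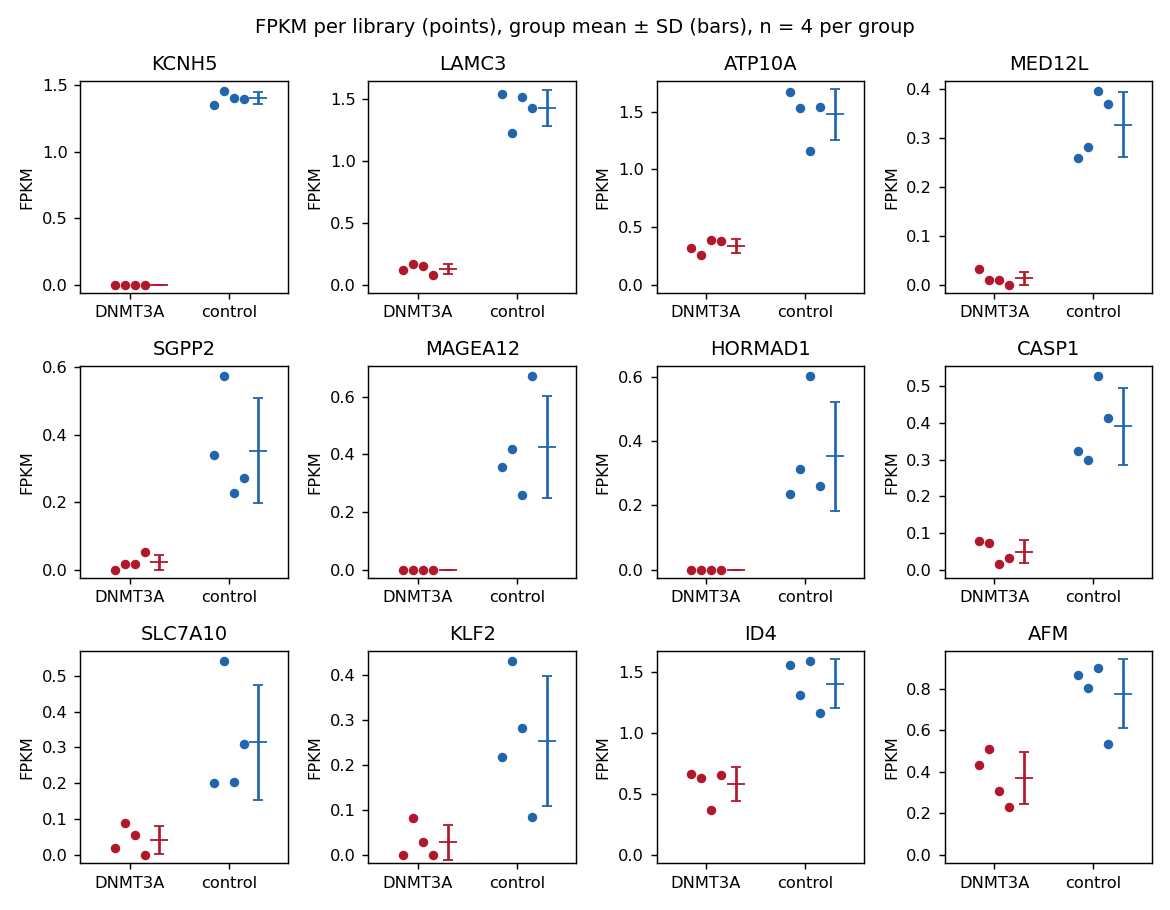
FPKM (vertical axis, linear) of 12 of the 84 genes in each DNMT3A library (red) and control library (blue), with the group mean and SD, n = 4 per group. KCNH5, HORMAD1 and MAGEA12 are at 0 in all 4 DNMT3A libraries, while ID4 and AFM kept 0.411 and 0.477 times their control means.

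ATP10A, a phospholipid-transporting ATPase that lies in the imprinted region of chromosome 15 (chr15:25677273-25865172, minus strand), had 199 reads in DNMT3A and 829 in control libraries. It had 0.320, 0.253, 0.390 and 0.379 FPKM in DNMT3A libraries 1 to 4, against 1.67, 1.53, 1.16 and 1.54 FPKM in control libraries 1 to 4. An RNA inside one of its introns, AC023449.2, had 0.171 ± 0.0472 FPKM in DNMT3A and 0.927 ± 0.190 FPKM in control libraries, and fell by 1.92 on the log2 scale (limma adjusted p = 0.00141). AC023449.2 lies on the same strand as ATP10A, so its reads may belong to ATP10A and its fall may be no separate result. WT1, a zinc finger transcription factor of kidney and gonad that is also listed as imprinted, had 0.139, 0.133, 0.0979 and 0.0968 FPKM in DNMT3A libraries 1 to 4, against 0.198, 0.282, 0.276 and 0.318 FPKM in control libraries 1 to 4. ATP10A and WT1 were the 2 members among 10 low genes of the list of imprinted genes. Of the 30 other tested genes of that list 3 fell, among them GRB10 (log2 -0.51, limma adjusted p = 0.00894), and 2 rose, PEG3 (log2 0.27, limma adjusted p = 0.0132) and DLK1 (log2 0.28, limma adjusted p = 0.0334). DLK1 lost its call without control 2, 3 or 4 or DNMT3A 1, 2 or 3 (limma adjusted p = 0.0612 to 0.0951).

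Transcription factors were 8 of the 84 genes by the family column of the deposited table, ELF5, ID4, NFE2, ZIC5, LYL1, WT1, KLF2 and GATA5. The share of such factors among all low genes was not counted, so this number does not set the members apart. KLF2, a Krüppel-like factor of endothelium and lymphocytes, had 0, 0.0812, 0.0285 and 0 FPKM in DNMT3A libraries 1 to 4, against 0.218, 0.432, 0.282 and 0.0845 FPKM in control libraries 1 to 4. Its groups nearly touched, and only 4 reads in DNMT3A and 34 in control libraries stand behind it. ID4, an inhibitor of basic helix-loop-helix factors, had 0.660, 0.629, 0.368 and 0.655 FPKM in DNMT3A libraries 1 to 4, against 1.55, 1.31, 1.59 and 1.16 FPKM in control libraries 1 to 4. ELF5, an epithelial ETS factor, had 0.293, 0.316, 0.307 and 0.354 FPKM in DNMT3A libraries 1 to 4, against 0.880, 0.737, 0.759 and 0.632 FPKM in control libraries 1 to 4. The ELF5 libraries were close together within each group and well apart between groups. NFE2, an erythroid and platelet factor, ZIC5, a neural developmental factor, LYL1, a blood stem cell factor, and GATA5, a factor of heart and gut endoderm, had ratios of 0.437, 0.476, 0.470 and 0.453.

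ID4 and GATA5 were 2 of the 9 low genes in a list of tumour suppressors known for promoter methylation, and 3 others of the 9 met the opposite rule. Among the 26 other tested genes of that list, CASP8 fell (log2 -0.33, limma adjusted p = 0.00787), and DAPK1 (log2 0.51, limma adjusted p = 0.00451) and CDH1 (log2 0.31, limma adjusted p = 0.0287) rose. CDH1 lost its call without control 1, 2 or 3 or DNMT3A 1 or 3 (limma adjusted p = 0.0727 to 0.0822). WT1 and GATA5 were 2 of 11 low genes in a list of developmental regulators bound by Polycomb, a repressor complex. Of the 25 other tested genes of that list, 6 fell and 1 rose, beside 7.57% and 7.25% of all tested protein-coding genes. The fallen ones included SOX18 (log2 -0.93, limma adjusted p = 0.00262), PITX1 (log2 -0.70, limma adjusted p = 0.00429) and FOXQ1 (log2 -0.63, limma adjusted p = 0.0135). A list of C2H2 zinc finger genes matched by symbol pattern held KLF2 as 1 member among 144 low genes, of which 4 met the opposite rule. Of its 520 other tested genes 51 rose and 19 fell. That pattern misses WT1 and ZIC5, which the family column of the deposited table also counts as C2H2 zinc fingers.

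CASP1, the protease that matures interleukin-1 beta and interleukin-18 (chr11:105025443-105035250, minus strand), had 0.0774, 0.0738, 0.0156 and 0.0308 FPKM in DNMT3A libraries 1 to 4, against 0.323, 0.298, 0.530 and 0.415 FPKM in control libraries 1 to 4. IL18, its substrate, had 0.153, 0.166, 0.241 and 0.216 FPKM in DNMT3A libraries 1 to 4, against 0.311, 0.464, 0.529 and 0.303 FPKM in control libraries 1 to 4. NLRP1, an inflammasome sensor that activates CASP1, had 0.0850, 0.0895, 0.0898 and 0.0844 FPKM in DNMT3A libraries 1 to 4, against 0.206, 0.141, 0.187 and 0.235 FPKM in control libraries 1 to 4. CASP1, IL18 and NLRP1 were picked from the members after their values were seen. CSF3 and IL18 were the 2 members among 24 low genes in a list of interleukins, chemokines and their receptors, with 3 of 60 other tested genes lower and 7 higher. A list of interferon-stimulated and antigen presentation genes held no member among 15 low genes, with 5 of 53 other tested genes lower and 1 higher. CASP4, the inflammatory caspase next to CASP1, had 3.96 ± 0.132 FPKM in DNMT3A and 4.66 ± 0.461 FPKM in control libraries (log2 -0.23, limma adjusted p = 0.107).

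CD14, the lipopolysaccharide co-receptor that hepatocytes also make, had 0.638, 0.695, 0.641 and 0.633 FPKM in DNMT3A libraries 1 to 4, against 1.6, 1.11, 1.47 and 1.17 FPKM in control libraries 1 to 4. SIGIRR, a negative regulator of interleukin-1 receptors, LTC4S, the leukotriene C4 synthase, and CSF3, the granulocyte growth factor, had ratios of 0.467, 0.363 and 0.465. P2RY6, a receptor for extracellular UDP, stood at 0.478 and ACKR4, a scavenger receptor for chemokines, at 0.394. CD14 was the only member in the list of 14 immune markers checked. In that list the pan-leukocyte marker PTPRC and the T cell marker CD3E had 0 FPKM in all 8 libraries, and only LYZ averaged at least 1 FPKM. The summed level of the 14 immune markers, most of it LYZ, was 316 to 347 FPKM in DNMT3A libraries and 199 to 265 FPKM in control libraries, higher where CD14 was lower. In a wider list of blood cell markers CD14 was 1 of 7 low genes, and LCP1, an actin bundler of leukocytes encoded on chromosome 13, also fell, at 2.14 ± 0.0511 FPKM in DNMT3A and 4.49 ± 0.269 FPKM in control libraries (log2 -1.03, limma adjusted p = 0.000138). LYZ rose (log2 0.48, limma adjusted p = 0.0151), a call lost without control 3 (limma adjusted p = 0.051). All 15 hepatocyte markers averaged at least 1 FPKM, 1 of 9 fibroblast markers did (ACTA2), and none of 6 endothelial markers did.

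AFM, the vitamin E-binding serum protein afamin of the albumin family (chr4:73481683-73504001, plus strand), had 0.434, 0.511, 0.308 and 0.228 FPKM in DNMT3A libraries 1 to 4, against 0.867, 0.803, 0.901 and 0.532 FPKM in control libraries 1 to 4. AFP, the fetal serum protein encoded beside it, had 1143 ± 192 FPKM in DNMT3A and 370 ± 9.28 FPKM in control libraries, and rose by 1.61 on the log2 scale (limma adjusted p = 0.000175). ALB, the third gene of the cluster, did not pass the test (log2 0.00, limma adjusted p = 0.994). ALDH8A1, a retinal and kynurenine pathway dehydrogenase, and ALDH3A1, a dehydrogenase of medium-chain aldehydes, had ratios of 0.435 and 0.438. They were 2 of 12 low genes (16.7%) in a list of hepatocyte drug and sterol enzymes, beside 3.81% of all low genes. In that list 2 other low genes met the opposite rule, beside 4.04% of all low genes. Among the 26 other tested genes of that list 5 fell and 3 rose, with UGT1A1, which conjugates bilirubin, at a log2 of 1.46 (limma adjusted p = 0.0148) and ABCG8, a sterol transporter, at -0.65 (limma adjusted p = 0.00716). UGT1A1 lost its call without DNMT3A 3 (limma adjusted p = 0.0504). MOGAT1, an acyltransferase of triglyceride synthesis, had 0.656, 0.834, 0.329 and 0.488 FPKM in DNMT3A libraries 1 to 4, against 1.38, 1.27, 1.33 and 1.57 FPKM in control libraries 1 to 4.

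GPX8, a peroxidase of the endoplasmic reticulum, had a ratio of 0.317 and was 1 of 9 low genes in a list of glutathione and NRF2 genes. The other genes of that list leaned the same way, with 17 lower, none higher and a median log2 of -0.22 over 48 tested genes, beside 0.00 over all genes tested (1 was higher at an unadjusted limma p under 0.05 and none with voom). Over all tested protein-coding genes 7.57% were lower and 7.25% higher. GSTA1, a glutathione transferase of liver, fell by 1.54 on the log2 scale (limma adjusted p = 0.000295), GSTA2, its close copy, by 1.07 (limma adjusted p = 0.000864) and SLC7A11, a cystine importer, by 1.16 (limma adjusted p = 0.00141). SLC7A10, an amino acid transporter of astrocytes and fat cells, had 0.0184, 0.0878, 0.0555 and 0 FPKM in DNMT3A libraries 1 to 4, against 0.202, 0.542, 0.203 and 0.310 FPKM in control libraries 1 to 4. SLC1A7, a glutamate transporter of retina, had a ratio of 0.391. These were the 2 members among 45 low solute carriers, of which 5 others met the opposite rule. Of 240 other solute carriers tested, 26 fell and 20 rose. No p53 target was a member, but only 3 were low genes. Of the 40 p53 targets tested 18 rose and 1 fell, beside 7.25% and 7.57% of all tested protein-coding genes.

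Matrix and signalling members included COL4A2, a basement membrane collagen, at 0.0327, 0.0453, 0.0507 and 0.0324 FPKM in DNMT3A libraries 1 to 4, against 0.195, 0.129, 0.147 and 0.188 FPKM in control libraries 1 to 4. MMP17, a membrane-anchored metalloproteinase, had 0.343, 0.409, 0.331 and 0.298 FPKM in DNMT3A libraries 1 to 4, against 0.988, 1.26, 0.805 and 0.851 FPKM in control libraries 1 to 4. LAMC3 and MMP17 were 2 of 15 low genes in a list of matrix genes, in which 5 of 41 other tested genes fell, such as ADAMTS2 (log2 -1.05, limma adjusted p = 0.00143) and SPARC (log2 -0.47, limma adjusted p = 0.00115), and 2 rose, among them MMP11 (log2 0.99, limma adjusted p = 0.00383). DLL4, a Notch ligand, had a ratio of 0.378 and was the 1 member among 14 low genes of a list of WNT, FGF, TGF-beta and Notch genes. Of the 47 other tested genes of that list 10 fell and 4 rose, with INHBE, an inhibin subunit made in liver, at a log2 of -0.85 (limma adjusted p = 0.00436) and HEY1, a Notch target, at 0.97 (limma adjusted p = 0.0132).

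Several members have roles in membrane traffic or the cytoskeleton. DAB2, a clathrin adaptor for lipoprotein receptors, had 0.468, 0.382, 0.425 and 0.309 FPKM in DNMT3A libraries 1 to 4, against 1.16, 0.933, 1.12 and 1.28 FPKM in control libraries 1 to 4. TNIK, a kinase of the WNT pathway, had 0.0672, 0.0513, 0.135 and 0.0667 FPKM in DNMT3A libraries 1 to 4, against 0.302, 0.436, 0.319 and 0.460 FPKM in control libraries 1 to 4. RAB36, a small GTPase of vesicle traffic, had 0.265, 0.160, 0.294 and 0.305 FPKM in DNMT3A libraries 1 to 4, against 0.780, 0.806, 0.723 and 0.871 FPKM in control libraries 1 to 4. Within DNMT3A cells, the lowest and highest libraries of RAB36 were DNMT3A 2 and DNMT3A 4, and those of DAB2 were DNMT3A 4 and DNMT3A 1. DOCK9, an exchange factor for CDC42, ABLIM3, an actin-binding LIM protein, SYTL2, an effector of RAB27, FMNL1, a formin, and WNK3, a kinase that regulates chloride cotransport, had ratios of 0.480, 0.376, 0.444, 0.430 and 0.438. RSPH4A and DNALI1, parts of motile cilia, were 2 of 70 low genes in a list of kinesins, dyneins and cilia genes. That is 2.86%, beside 3.81% of all low genes.

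Other genes with low ratios had mixed roles. SCO2, a copper chaperone of cytochrome c oxidase, had a ratio of 0.162 from 2 reads in DNMT3A and 12 in control libraries. A second entry named SCO2 overlaps it by 2039 bases on the same strand, at 0.012 FPKM in DNMT3A and 0 FPKM in control libraries. U62317.2 overlaps it on the opposite strand at a mean of 1.29 FPKM, so the reads behind this member are uncertain. FADS6, a member of the fatty acid desaturase family, had 0.0801, 0.0382, 0.0402 and 0.0199 FPKM in DNMT3A libraries 1 to 4, against 0.417, 0.203, 0.177 and 0.179 FPKM in control libraries 1 to 4. ARL11, an ADP-ribosylation factor-like GTPase, had 0.0749, 0.0285, 0.0451 and 0 FPKM in DNMT3A libraries 1 to 4, against 0.180, 0.182, 0.165 and 0.267 FPKM in control libraries 1 to 4. C2CD4D, with a ratio of 0.207, rested on 6 reads in DNMT3A and 27 in control libraries. TRIM36, a ubiquitin ligase, OLFML3, a secreted olfactomedin-like protein, and P2RY6 were well counted but close to the limit of the rule, at ratios of 0.495, 0.485 and 0.478. PKIB, an inhibitor of protein kinase A, had 0.1, 0.0796, 0.134 and 0.0994 FPKM in DNMT3A libraries 1 to 4, against 0.311, 0.779, 0.497 and 0.364 FPKM in control libraries 1 to 4. CLDN3, a tight junction claudin, had a ratio of 0.214, NOX3, an NADPH oxidase of the inner ear, 0.260, RTN4R, the Nogo receptor, 0.309, and MFSD2B, a sphingosine-1-phosphate exporter of blood cells, 0.329. MYRIP, a linker of RAB27 to myosin, stood at 0.292, NYX, a retinal proteoglycan, at 0.344, and MYBPHL, a heart muscle protein, at 0.370. MACROD2, GLOD5, LYPD3, ADAP2, HRCT1, C9orf24, MFSD4A, C2orf74, C1orf105, ZDHHC19 and SERPINB8 had ratios between 0.320 and 0.495. In all, 55 of the 84 genes were in none of the 33 lists.

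The other lists held few or no members. Ion channels had 1 (KCNH5) among 40 low genes, G protein-coupled receptors 1 (P2RY6) among 47, collagens 1 (COL4A2) among 3 and clustered histones 1 (HIST1H4J) among 25. No member was found among 25 low cadherins and protocadherins, 17 homeobox genes, 15 neuronal genes, 11 cytochrome P450 genes, 11 genes of myosins, actins, troponins and tropomyosins, 11 genes of skeletal and heart muscle and 6 keratins. There was also none among 2 low markers of fibroblasts, 2 of endothelium, 1 of hepatocytes and 2 genes of the DNA methylation machinery.

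FUT2, which makes the H antigen of secretions, and SULT2B1, a sulfotransferase of sterols, were 2 of 16 low genes in a list of glycosyltransferases and sulfotransferases. Of the 16, 4 others met the opposite rule. In that list UGT2B4, a liver glucuronosyltransferase, rose by 2.77 on the log2 scale (limma adjusted p = 0.000798), and over its 73 other tested genes 6 fell and 10 rose. The histone gene HIST1H4J and the galectin gene LGALS7B have near-identical copies, BLOC1S1-RDH5 is a readthrough of 2 genes, and AP003071.5 lies within TPCN2, so the reads behind these 4 members are uncertain. The same holds for SCO2, which has a second entry at its locus.

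Members are scattered over the genome. Chromosome 13 held 5 of its 29 low genes, ZIC5, DOCK9, GAS6, ARL11 and COL4A2, a share of 17.2%, against 3.81% over all low genes. The rest of chromosome 13 was lower too: among its 349 other tested genes, 55 were called lower and 11 higher, and the median log2 difference was -0.14. Set against their control means, these genes had a median shift of -0.14, -0.25, -0.14 and -0.08 in the 4 DNMT3A libraries, and of -0.02 to 0.02 in the control libraries. The part of this shift in the 5 members was not tested, and their ratios lay between 0.187 and 0.480. Chromosome 14, where KCNH5 lies, had 23 of 649 other tested genes lower and 117 higher, with a median log2 difference of 0.14. Chromosomes 8, 10, 16 and 21 held no member among 61, 69, 122 and 25 low genes. Without chromosome 13, 79 of 2173 low genes met the rule.

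No member overlapped another, but 3 pairs lay close together. RBBP8NL and GATA5 are 36 kb apart, SULT2B1 and FUT2 96.5 kb, and SGPP2 and MOGAT1 111 kb. Between SGPP2 and MOGAT1 lies FARSB, a transfer RNA synthetase subunit, at 27.4 ± 2.54 FPKM in DNMT3A and 26.6 ± 2.13 FPKM in control libraries (log2 0.04, limma adjusted p = 0.817). Beside SGPP2 the antisense RNA AC097461.1 had 0.157 ± 0.101 FPKM in DNMT3A and 0.662 ± 0.139 FPKM in control libraries (log2 -1.64, limma adjusted p = 0.0145). The antisense RNA fell, while the abundant gene between the pair did not pass the test.

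The nearest tested protein-coding gene on each side of the members, other members left out, gave 165 neighbours, of which 22 fell (13.3%) and 6 rose (3.64%). Over all 12240 tested protein-coding genes, 7.57% fell and 7.25% rose. No limit was set on the distance, and TMX3, which fell, lies 4654 kb from SERPINB8. Within 300 kb of 31 named members, 24 of 254 other tested genes of every kind fell and 11 rose. Over all 19322 tested genes 5.48% fell and 5.54% rose. Neighbours share chromosome position, so they are no independent sample, and no test was made. The fallen neighbours include ZIC2, RAB20, TFDP1 and CDC16 on chromosome 13, where the other genes were lower too. CTSS, a lysosomal cysteine protease 9.31 kb from HORMAD1, had 0.719 ± 0.0929 FPKM in DNMT3A and 2.43 ± 0.314 FPKM in control libraries, and fell by 1.62 on the log2 scale (limma adjusted p = 0.000295). GOLPH3L, on the other side of HORMAD1 at 0.916 kb, had 6.61 ± 0.819 FPKM in DNMT3A and 5.36 ± 0.258 FPKM in control libraries (log2 0.29, limma adjusted p = 0.079). CTSS and GOLPH3L thus had differences of opposite sign, and that of GOLPH3L did not pass the test, though it did without DNMT3A 2 (limma adjusted p = 0.0317).

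CEBPA, a master factor of hepatocytes 74.1 kb from SLC7A10, had 23.1 ± 4.98 FPKM in DNMT3A and 45.3 ± 4.76 FPKM in control libraries (log2 -0.99, limma adjusted p = 0.00451). LRP3, which overlaps SLC7A10 on the other strand, had a log2 of -0.31 (limma adjusted p = 0.0262) and lost its call without control 1, 2 or 3 or DNMT3A 1 or 3 (limma adjusted p = 0.0583 to 0.0797). SIGIRR lay between PKP3 (log2 -0.54, limma adjusted p = 0.0167) and ANO9 (log2 -0.76, limma adjusted p = 0.00366), both of which fell, although PKP3 lost its call without control 3 (limma adjusted p = 0.0537). Others that fell were SLC35A4 near CD14 (log2 -1.21, limma adjusted p = 0.00107), P2RY2 near P2RY6 (log2 -0.66, limma adjusted p = 0.0144), B4GALNT3 near NINJ2 (log2 -0.64, limma adjusted p = 0.0132), ZIC2 near ZIC5 (log2 -0.62, limma adjusted p = 0.00935) and RAB20 near COL4A2 (log2 -0.52, limma adjusted p = 0.006). SLC35A4 missed the rule only by its mean of 1.02 FPKM. No step of the protocol records strand, so reads of overlapping genes on opposite strands cannot be told apart. A different annotated gene overlapped 50 of the 84 members, and for 12 of them that gene averaged at least 1 FPKM.

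**Figure D4:**
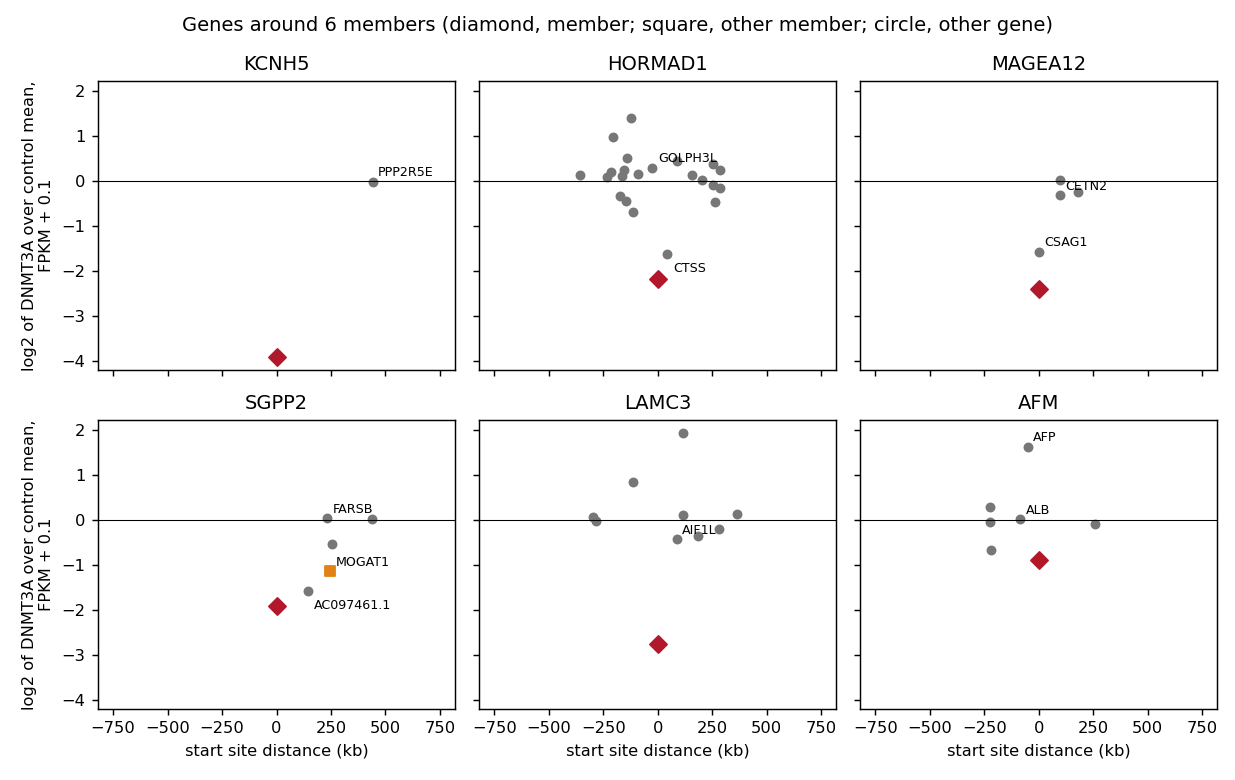
Log2 ratio of the DNMT3A mean to the control mean, FPKM + 0.1 (vertical axis), of genes around 6 members against the distance between start sites in kb (horizontal axis, in the direction of the chromosome). The member is the red diamond at 0, and the circles are its measured neighbours: CTSS lies low beside HORMAD1 and CSAG1 beside MAGEA12, while PPP2R5E and FARSB lie at the line of no difference and AFP lies above it.

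Promoters were read from RefSeq (build GRCh38.p14), 250 bases before to 50 bases after the start of each gene, and 59 of the 84 genes had an entry. In such a window the number of CpG dinucleotides over the number its C and G content would give is a usual measure of a CpG island, with 0.6 as the usual limit. Of the 59 promoters, 31 reached 0.6 (52.5%, exact 95% interval 39.1 to 65.7). The share was 49.2% in 63 promoters of the opposite rule, 59.7% in 1612 promoters of all low protein-coding genes, 86.2% in 8081 of protein-coding genes with at least 1 FPKM, and 38.3% in 5210 of those with under 0.1 FPKM. The median number of CpG dinucleotides was 17 in the 59 promoters and 20 in those of all low genes. Promoters with at most 2 were 5 of 59 (8.47%), against 8.31% of all low genes. The share at 0.6 was 7 of 15 for genes with a ratio of at most 0.25 and 24 of 44 for the others. It rose to 24 of 35 (68.6%) among members with at least 20 reads per control library on average. The other low genes were not split by reads, so 59.7% is no comparison for that share.

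**Figure D5:**
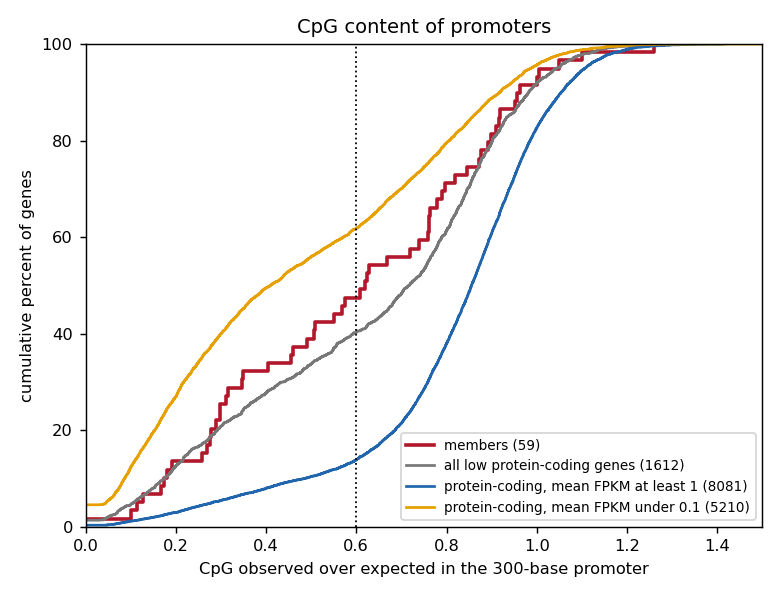
Cumulative percent of genes (vertical axis) by the CpG observed over expected of the 300-base promoter (horizontal axis), with the limit of 0.6 dotted. The 59 promoters of the members (red) follow those of all 1612 low protein-coding genes (grey), between genes with at least 1 FPKM (blue) and those under 0.1 FPKM (orange).

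Among the 20 members with the most control reads, the 2 promoters richest in CpG by this measure and the 2 poorest are shown to set the range beside the values above. Capitals mark each CpG. TRIM36 (chr5:115180245-115180544, minus strand) has 40 and ATP10A (chr15:25863278-25863577, minus strand) has 37. ELF5 (chr11:34511675-34511974, minus strand) has 2 and OLFML3 (chr1:113979224-113979523, plus strand) has 7. The RefSeq starts of ATP10A and ELF5 are 1845 and 2081 bases from the gene starts in the deposited table. Their windows may therefore not be the starts used in these cells.
TRIM36: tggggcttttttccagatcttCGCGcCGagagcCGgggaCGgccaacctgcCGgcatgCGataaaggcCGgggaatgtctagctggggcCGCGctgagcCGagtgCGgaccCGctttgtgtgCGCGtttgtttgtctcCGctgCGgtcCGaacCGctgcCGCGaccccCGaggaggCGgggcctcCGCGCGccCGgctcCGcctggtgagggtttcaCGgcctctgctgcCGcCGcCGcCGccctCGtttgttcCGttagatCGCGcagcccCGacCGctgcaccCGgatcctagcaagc
ATP10A: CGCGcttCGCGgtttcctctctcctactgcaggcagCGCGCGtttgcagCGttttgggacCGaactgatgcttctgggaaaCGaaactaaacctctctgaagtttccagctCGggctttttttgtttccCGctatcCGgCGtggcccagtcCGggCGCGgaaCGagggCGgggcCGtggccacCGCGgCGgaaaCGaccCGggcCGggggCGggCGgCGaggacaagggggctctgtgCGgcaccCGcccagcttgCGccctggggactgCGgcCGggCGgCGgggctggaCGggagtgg
ELF5: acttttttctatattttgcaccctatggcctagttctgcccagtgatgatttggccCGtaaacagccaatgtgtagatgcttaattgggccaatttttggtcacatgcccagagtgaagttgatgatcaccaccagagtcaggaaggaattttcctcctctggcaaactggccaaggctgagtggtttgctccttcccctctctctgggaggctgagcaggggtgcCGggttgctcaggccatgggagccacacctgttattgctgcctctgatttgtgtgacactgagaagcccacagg
OLFML3: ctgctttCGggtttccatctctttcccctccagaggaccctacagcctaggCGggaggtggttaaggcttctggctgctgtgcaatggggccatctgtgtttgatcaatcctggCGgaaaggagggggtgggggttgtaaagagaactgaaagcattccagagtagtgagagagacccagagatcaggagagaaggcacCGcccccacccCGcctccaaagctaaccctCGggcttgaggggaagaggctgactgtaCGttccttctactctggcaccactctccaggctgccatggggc
The ratios of the DNMT3A mean to the control mean were 0.495 for TRIM36 and 0.227 for ATP10A, and 0.422 for ELF5 and 0.485 for OLFML3.

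The promoters of MAGEA12 (chrX:152733507-152733806, plus strand) and KCNH5 (chr14:63045409-63045708, minus strand) are given because both genes had no read in DNMT3A cells, a choice made after their values were seen. MAGEA12 has 9 CpG dinucleotides and an observed over expected of 0.347. KCNH5 has 33 and 0.819, but its RefSeq start is 56579 bases from the start of the gene in the deposited table, so the window may not be the start used in these cells.
MAGEA12: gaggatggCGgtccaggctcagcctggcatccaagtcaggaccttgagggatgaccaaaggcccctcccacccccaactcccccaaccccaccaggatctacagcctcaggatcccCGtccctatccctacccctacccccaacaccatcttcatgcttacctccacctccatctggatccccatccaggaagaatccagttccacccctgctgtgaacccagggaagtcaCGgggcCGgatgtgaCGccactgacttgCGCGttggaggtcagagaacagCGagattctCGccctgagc
KCNH5: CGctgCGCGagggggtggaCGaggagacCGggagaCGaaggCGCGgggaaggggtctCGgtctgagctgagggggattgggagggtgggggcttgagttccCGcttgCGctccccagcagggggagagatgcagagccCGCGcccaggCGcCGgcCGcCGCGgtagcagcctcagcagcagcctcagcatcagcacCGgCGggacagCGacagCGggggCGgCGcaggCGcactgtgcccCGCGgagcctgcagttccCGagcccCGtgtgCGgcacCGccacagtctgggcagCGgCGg
These 2 windows thus differed in CpG content. HORMAD1, which also had no read in DNMT3A cells, and LAMC3 were not matched to a promoter entry.

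The limits of the rule cut through a continuum. By mean level, SCO2 (0.101 FPKM), COL4A2 (0.103 FPKM) and DLL4 (0.103 FPKM) were just inside and CSAG1 (0.0990 FPKM), CCL14 (0.0985 FPKM) and PEX11G (0.0951 FPKM) just outside. At the upper end CD14 (0.995 FPKM), ID4 (0.992 FPKM) and MOGAT1 (0.982 FPKM) were inside and SLC35A4 (1.02 FPKM), MAST1 (1.05 FPKM) and NPNT (1.07 FPKM) outside. By the ratio, RBBP8NL (0.498), KIAA0040 (0.497) and TRIM36 (0.495) were inside and OR1F1 (0.504), NANOS1 (0.504) and WNT11 (0.507) outside. By the gap between groups, VCX, BLOC1S1-RDH5 and ALLC had a lowest control value 1.01, 1.01 and 1.04 times the highest DNMT3A value, and NDUFA4L2, CPA6 and EGFL7 were outside at 0.987, 0.980 and 0.976.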

How the data were processed

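Poly(A) RNA of HepG2 cells was sequenced in 4 DNMT3A and 4 control libraries, grouped by the sample titles. Per the submitters' processing notes the reads were aligned with HISAT2 2.0.5 to hg38; the counting step is not given in the sources used here. 1 table of FPKM was deposited by the authors, 1 column per library, with gene coordinates equal to GENCODE release 29 for all 58735 genes. FPKM depends on a library total, so a few abundant genes can shift all others. FPKM times gene length, divided by the step that 1 read is worth in each library, came out whole, within 0.01 of a read, in 100% of cases, and these whole reads are the counts given here; chi-square per degree of freedom between libraries of a group was 4.26 to 21.6, so none was a duplicate.

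Members were picked by the rule of the opening. They are counted in full, but 1 member and 1 gene list are not reported here. The members and the 33 gene lists were chosen with earlier results of these data known, families of genes were matched by symbol pattern, and a gene can be in several lists. Genes with a mean of at least 0.1 FPKM were compared on log2(FPKM + 0.1) with limma 3.58.1 in R 4.3.3 (variance moderated with an intensity trend, Benjamini-Hochberg adjustment over all 19322 genes, threshold 0.05), a scale that understates changes of low genes. limma was tested on simulated data. Ratios of reads have exact binomial 95% intervals, and the floor is 3 reads over a group; both cover counting error only. Named members are the 20 with the most control reads, the 15 with the lowest ratio, up to 4 per list, the 3 inside and outside each limit and members within 100 kb of each other; named non-members are up to 3 per list past the threshold. CAGE1 and further members in prose, SGPP2 with MOGAT1, neighbours, AC023449.2, AC097461.1 and CASP4 were named after their values were seen. Alternatives were other scalings, pseudocounts, filters, voom on the recovered reads, limits of the rule, the replicate number as a block, leaving out each library and, added after seeing the data, chromosome 13.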

Additional observations from a re-analysis of the deposited data

Results flagged for a closer look

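In 61 groups of 4 libraries (the named members with the most reads or the lowest ratios, and DNMT3A) 5 had 1 library far from the other 3, where chance gives about 1 in 20. The gap to the nearest library, as a share of the range, was 0.895 for ID4, where DNMT3A 3 had 0.368 FPKM and the other DNMT3A libraries 0.629 to 0.660 FPKM. It was 0.976 for SYTL2, where DNMT3A 1 had 0.142 FPKM and the others 0.0960 to 0.0971 FPKM. Among control libraries it was 0.858 for OLFML3 (control 3 at 1.61 FPKM, the others 0.927 to 1.02 FPKM), 0.890 for FADS6 (control 1 at 0.417 FPKM, the others 0.177 to 0.203 FPKM) and 0.833 for ARL11 (control 4 at 0.267 FPKM, the others 0.165 to 0.182 FPKM). The 5 flags lie in 5 different libraries.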

How the results depend on the processing

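The members rest on low counts and on limits chosen with the results known. Under the rule 84 genes were picked, 82 with median-ratio scaling (all 82 among the 84) and 84 with recovered reads scaled by TMM totals (83 shared). A looser limit on the ratio (2/3) picked 149, a stricter one (1/3) 30, allowed overlap 136, a mean of at least 0.2 FPKM 52 and no lower limit above 0 141. Leaving out each library gave 81 to 107, of which 67 to 78 were among the 84; fewer libraries make the limit on overlap easier to meet. The ratio went above the limit of 0.5 in some scaling or without some library for 23 of the 84 members, at most to 0.611. The limma count of lower genes was 785 with no filter, 1433 with voom, 596 with the replicate block and 571 to 1064 without 1 library; higher genes were 824, 1472, 620 and 614 to 1041. Same-numbered libraries correlated at 0.159, -0.082, -0.025 and 0.098 in their deviations from the group means. These values do not show a pairing by replicate number, and cannot exclude one. DNMT3A was higher by 1.26 with the replicate block (limma adjusted p = 0.00648) and kept its call under every alternative run. The share of promoters at 0.6 was 68.6% with at least 20 reads per control library. With the replicate block, calls named in the text were lost for HEY1, PEG3, B4GALNT3, UGT1A1, LRP3, CDH1 and DLK1 (limma adjusted p = 0.0517 to 0.0883), and for DLK1 also without a filter (0.0621). The log2 differences of genes near 0 changed sign when 1 library was left out: PPP2R5E from -0.0623 to 0.0415, FARSB from -0.0235 to 0.0758 and ALB from -0.0511 to 0.115.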
